A study of Mus musculus with 6 samples.

Results

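The genes described here are the receptors of transforming growth factor β (TGF-β), the Smad proteins that carry its signal to the nucleus, and the proteins that restrain it. They are 10 of the 53465 genes of the deposited count table, found by matching the symbols Tgfbr1, Tgfbr2, Tgfbr3, Smad2, Smad3, Smad4, Smad7, Smurf1, Ski and Skil to Ensembl identifiers in GENCODE M21. Ribosome profiling, which sequences the short stretch of mRNA that a translating ribosome shields from nuclease, was carried out on ID8 cells, a tumorigenic line that came from mouse ovarian surface epithelium. Of the 6 libraries, 3 are titled WT and 3 KO, and the series describes its groups as ID8 cells with a control guide (sgNC) and ID8 cells depleted of NAT10 with the guide sgNat10. NAT10 is the enzyme that places N4-acetylcytidine on RNA. All cells received 100 µg/mL cycloheximide for 2 minutes before harvest, and fragments of 25 to 34 nt were kept. The labels do not say whether the KO cells were 1 clone or a pool, nor whether replicates were separate cultures, so the p-values cover only the spread among these 6 libraries, which may be technical. RNA-seq was not used here, so a count holds mRNA abundance and ribosome occupancy together.

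TGF-β binds the type II receptor, which then phosphorylates the type I receptor in a serine-rich stretch called the GS box. The activated type I receptor phosphorylates Smad2 and Smad3 on serines at their extreme carboxy end, and these join Smad4 and enter the nucleus to regulate transcription. Smad7 and the ubiquitin ligase Smurf1 switch the receptor off, and Ski and Skil (SnoN) hold Smad complexes in a repressed state. In epithelial cells the pathway is known for halting proliferation and for inducing matrix and mesenchymal genes.

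The coding sequences of both ends of this relay are shown because they are the points where receptor and Smad act on each other, and because a fragment read there could be assigned. In the first 2 lines below, capitals mark the codons of the site itself, found by translating the GENCODE M21 coding sequence (GRCm38), and each is printed 5′ to 3′ in the sense of the mRNA.
Tgfbr1 GS box: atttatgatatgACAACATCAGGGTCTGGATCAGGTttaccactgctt
Smad3 carboxy end: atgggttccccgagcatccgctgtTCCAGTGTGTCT
The Tgfbr1 stretch covers codons 181 to 196 of 503 and crosses an intron, with 34 bases in coding exon 3 (chr4:47393456-47393489, plus strand) and 14 bases in coding exon 4 (chr4:47396355-47396368). The Smad3 stretch covers codons 414 to 425 of 425 and lies in coding exon 9 of 9 (chr9:63650265-63650300, minus strand). Across the 10 genes, every 28-base window of the coding sequence was compared with all GENCODE M21 transcripts of other genes on both strands. No window of Tgfbr1, Tgfbr2, Smad2, Smad3, Smad4, Smad7, Smurf1, Ski or Skil occurred in a transcript of another gene, and none of their exons overlapped an exon of another gene. In Tgfbr3, 272 of 2523 windows (10.8%) were shared with Gm43422, an unverified transcript model that overlaps its exons by 297 bases on the same strand. Fragments of 28 bases from the other 9 coding sequences, close paralogs such as Smad2 and Smad3 included, were thus distinct from the other annotated transcripts.

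The coding sequences were also searched for a cytidine followed by any 2 bases, 4 times in a row (CNNCNNCNNCNN, sense strand only, any reading frame, overlapping matches counted), the repeat reported around N4-acetylcytidine. The motif is common: 94.3% of 21951 mouse coding sequences held it, at a median of 7.38 matches per kb. Below are the longest runs of that spacing in the 2 genes with the highest density and the 2 with the lowest among Tgfbr1, Tgfbr2, Tgfbr3, Smad3, Smurf1, Ski and Skil, with the spaced cytidines in capitals.
Ski: CagCtgCggCctCggCcaCggCct
Tgfbr2: CatCatCatCttCtaCtgCtaCcg
Smurf1: CagCcgCtgCagCtgCcc
Skil: CatCtgCtgCgtCcc
The run in Ski lies at chr4:155157383-155157406 (minus strand, coding exon 7), that in Tgfbr2 at chr9:116110189-116110212 (minus strand, coding exon 4), that in Smurf1 at chr5:144891468-144891485 (minus strand, coding exon 10) and that in Skil at chr3:31113458-31113472 (plus strand, coding exon 3). Ski held 18.3 matches per kb (percentile 87.0 of all coding sequences) and Tgfbr2 18.2 (percentile 86.8), whereas Smurf1 held 6.84 (percentile 47.0) and Skil 3.46 (percentile 23.9). Smad7, not among those 7 genes, had the highest density of the 10, at 20.3 per kb. Across all coding sequences the density followed GC content (r = 0.620 across genes, which are not independent), and Ski and Smad7 were also GC-rich, at 63.1% and 62.7%. A match is a string of letters and not a measured modification.

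Total counts ran from 1687466 to 2148715 in WT and from 2234305 to 3126208 in KO. Besides the many genes with 1 or 2 counts, the histogram of gene counts in each library peaked again at 15, 21 and 39 counts in WT and 42, 46 and 60 in KO. A count divided by this second peak, the modal count, is given below as molecule equivalents, since no molecular identifiers are described and amplified copies may be counted repeatedly. That the peak stands for 1 molecule was not tested, and counts above 0 also lay below it, as for Tgfbr2 in KO replicate 1 (6 counts). Of 13 epithelial and mesothelial markers 11 had a count, with a summed level of 6225 to 6677 CPM (counts scaled to library size, with TMM factors) in WT and 4682 to 5337 CPM in KO, while Krt20 and Pax8 were at 0 in all libraries. The sum was carried by Krt19 and the single markers went both ways: of 7 tested, the keratins Krt19 (4202 to 2223 CPM from WT to KO, edgeR adjusted p = 0.0044) and Krt18 (515 to 154 CPM, edgeR adjusted p = 0.0195) were called lower and the mesothelial surface protein Msln (789 to 1636 CPM, edgeR adjusted p = 0.0145) was called higher. The 7 leukocyte markers reported here summed to at most 14.5 CPM in a library and the 8 endothelial and fibroblast markers to at most 6.0 CPM, with Cd3e, Itgam and Thy1 at 0. Nat10 did not differ detectably, with a mean of 112 ± 53.1 CPM for WT against 106 ± 43.1 CPM for KO (SD, n = 3) and a log2 fold change, KO minus WT, of -0.074 (SE 0.48, 95% interval -1.09 to 0.94, edgeR adjusted p = 1.0). Its sign turned without WT replicate 3 (0.35), without KO replicate 2 (0.23) and with library totals (0.026). The cut site of the guide is not given, so KO below is the label of a library, and loss of Nat10 was not seen in it.

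In none of the 9 receptors, Smads and regulators that could be tested was a difference detected between the libraries labelled KO and WT. Of the 10 genes 9 passed the filter on low counts and were tested, and 0 of the 9 were called by edgeR's quasi-likelihood test at an adjusted p under 0.05, where 33 of 8200 genes were called over the whole table (0.402%), 15 higher (0.183%) and 18 lower (0.22%). The same held for 0 of the 9 at an unadjusted p under 0.05, which 6.49% of all tested genes reached, and for 0 of the 9 by DESeq2, adjusted or unadjusted. In 0 of the 9 did the KO libraries lie apart from the WT libraries, as they did in 14.9% of all tested genes. Fitted log2 fold changes were above 0 in 5 of the 9, against 49% of all tested genes, with a median of 0.35 against -0.016. A fitted change of at least 2-fold was seen in 2 of the 9, Ski and Tgfbr2, and in 26.9% of all tested genes. The median standard error was 1.20 on the log2 scale, against 0.99 over all tested genes. Only large differences could thus have been called. As 0.402% of all tested genes were called, 0 of 9 does not set these genes apart. The count of 33 was 6 without WT replicate 2 or WT replicate 3, and 15, 20 and 18 when KO replicate 1, 2 or 3 was left out, and the count of called members stayed at 0 in these fits.

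**Figure D1:**
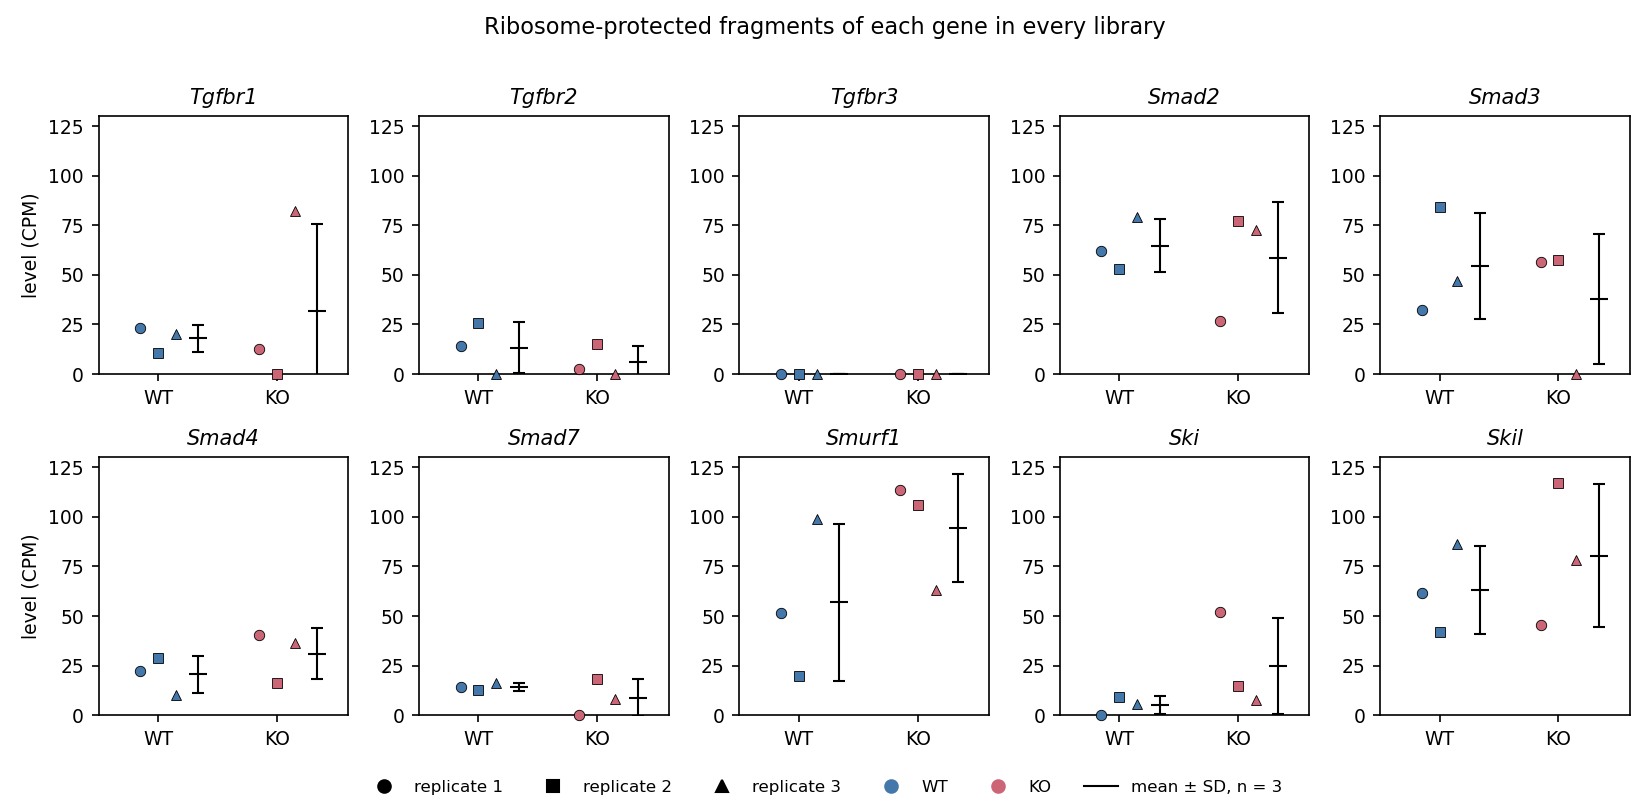
Level of each of the 10 genes (CPM, linear axis from 0) in the 3 WT and 3 KO libraries, 1 symbol per library, with the mean and SD of each group beside it; SD bars that reach below 0 are cut at 0. The 2 groups overlap in every panel, and single libraries at 0 stand beside others well above it, as in Smad3 and Tgfbr1.

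The ligand-binding side of the pathway was sparsely covered. Tgfbr1 (ENSMUSG00000007613, chr4:47353222-47414931, plus strand), the type I receptor kinase, had counts of 38, 21 and 35 for WT replicates 1 to 3 and of 33, 0 and 265 for KO replicates 1 to 3. KO replicate 3 alone stood above all others and KO replicate 2 had none, so the KO libraries lay on both sides of the 3 WT libraries. WT libraries averaged 17.9 ± 6.61 CPM and KO libraries 31.7 ± 44.2 CPM (SD, n = 3), with a log2 fold change of 0.82 (SE 1.61, 95% interval -2.61 to 4.25, edgeR adjusted p = 1.0). Its direction rested on KO replicate 3, without which the value was -1.47.

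Tgfbr2 (ENSMUSG00000032440, chr9:116084293-116175360, minus strand), the type II receptor that binds the ligand first, had 23, 52 and 0 counts in WT and 6, 36 and 0 in KO. Replicate 3 was at 0 in both groups, which allows up to 1.73 CPM in the WT library and 0.931 CPM in the KO library (3 counts, counting error only). There 1 modal count came to 22.5 CPM in the WT library and 18.6 CPM in the KO library. WT libraries averaged 13.3 ± 13.0 CPM and KO libraries 5.92 ± 8.31 CPM (SD, n = 3), a log2 fold change of -1.17 (SE 2.55, 95% interval -6.62 to 4.28, edgeR adjusted p = 1.0). The value was -3.46 without KO replicate 2 and -0.25 without WT replicate 2. Tgfbr2 averaged 0.822 molecule equivalents, and its 95% interval held falls of up to 98.2-fold and rises of up to 19.5-fold. A large difference in either direction was thus not excluded.

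Tgfbr3 (ENSMUSG00000029287, chr5:107106570-107289629, minus strand), betaglycan, the coreceptor that presents TGF-β to Tgfbr2, had 0 counts in all 6 libraries. Fragments of betaglycan were thus not detected in either group. A count of 0 allows between 0.931 and 1.82 CPM in a library, which covers counting error only, and 1 modal count came to 9.12 to 22.5 CPM.

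The Smads that carry the signal were better covered. Smad2 (ENSMUSG00000024563, chromosome 18, plus strand), one of the receptor-regulated pair, measured 62.0, 53.0 and 79.2 CPM in WT and 26.5, 77.1 and 72.6 CPM in KO. KO replicate 1 was the lowest of the 6, and the other KO libraries lay within the WT range. The group levels were 64.7 ± 13.3 and 58.7 ± 28.0 CPM (SD, n = 3), with a log2 fold change of -0.14 (SE 0.58, edgeR adjusted p = 1.0). The 95% interval ran from -1.38 to 1.10, so a fall of more than 2.61-fold or a rise of more than 2.15-fold lay outside it. The sign turned without KO replicate 1 (0.22) and without WT replicate 3 (0.030).

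Smad3 (ENSMUSG00000032402, chr9:63646767-63757994, minus strand), the other receptor-regulated Smad and the one that binds DNA directly, measured 32.2, 84.4 and 46.8 CPM in WT and 56.6, 57.4 and 0 CPM in KO. KO replicates 1 and 2 lay within the WT range, while KO replicate 3, the library with the most counts, had none (0 allows up to 0.931 CPM, counting error only, and 1 modal count there was 18.6 CPM). With all 6 libraries the log2 fold change was -0.52 (SE 1.15, 95% interval -2.98 to 1.93, edgeR adjusted p = 1.0), and without KO replicate 3 it was 0.060.

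Smad4 (ENSMUSG00000024515, chromosome 18, minus strand), the common partner of Smad2 and Smad3, measured 22.5, 29.0 and 10.4 CPM in WT and 40.6, 16.3 and 36.3 CPM in KO. The highest 2 values were KO and the lowest was WT, but KO replicate 2 lay below WT replicates 1 and 2. The groups averaged 20.6 ± 9.43 and 31.0 ± 13.0 CPM (SD, n = 3), a log2 fold change of 0.59 (SE 1.20, 95% interval -1.97 to 3.15, edgeR adjusted p = 1.0).

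Among the restraining proteins, Smad7 (ENSMUSG00000025880, chromosome 18, plus strand), the inhibitory Smad that blocks the type I receptor, had 23, 25 and 28 counts in WT and 0, 43 and 26 in KO. The WT libraries lay close together at 14.2 ± 1.86 CPM, and the KO libraries, at 8.83 ± 9.23 CPM (SD, n = 3), lay on both sides of them. The log2 fold change was -0.69 (SE 2.22, 95% interval -5.43 to 4.06, edgeR adjusted p = 1.0), and the value was -1.78 without KO replicate 2 and -0.10 without KO replicate 1.

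Smurf1 (ENSMUSG00000038780, chr5:144876495-144965847, minus strand), a ubiquitin ligase that Smad7 brings to the receptor, had the smallest p of the 9. It measured 51.7, 20.0 and 98.9 CPM in WT and 114, 106 and 63.3 CPM in KO. The 2 highest values were KO, WT replicate 3 came next, and WT replicates 1 and 2 were the lowest. The means were 56.8 ± 39.7 and 94.3 ± 27.1 CPM (SD, n = 3), a log2 fold change of 0.73 (SE 0.59, 95% interval -0.52 to 1.99), with an unadjusted p of 0.233 and an adjusted p of 1.0 in edgeR's quasi-likelihood test. Without WT replicate 3 the value was 1.39, with an unadjusted p of 0.0483 and an adjusted p of 0.789 by edgeR, and without WT replicate 2 it was 0.32.

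Ski (ENSMUSG00000029050, chr4:155154075-155222592, minus strand), a corepressor that binds Smad complexes, had 0, 18 and 10 counts in WT and 134, 34 and 24 in KO. KO replicate 1 held most of the KO counts, and in CPM KO replicate 3 (7.45) lay below WT replicate 2 (8.99). It had the largest fitted difference of the 9 (log2 fold change 2.31, SE 2.10, 95% interval -2.18 to 6.80, edgeR adjusted p = 1.0), and the value was 1.15 without KO replicate 1. With an average of 0.907 molecule equivalents and 5 of 6 libraries below their modal count, Ski was near the limit of detection on this scale.

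Skil (ENSMUSG00000027660, chr3:31095058-31122577, plus strand), the paralog of Ski known as SnoN, measured 61.4, 42.0 and 86.1 CPM in WT and 45.3, 117 and 78.5 CPM in KO. KO replicate 2 was the highest and the other KO libraries lay within the WT range. The groups averaged 63.2 ± 22.1 and 80.4 ± 36.1 CPM (SD, n = 3), a log2 fold change of 0.35 (SE 0.54, edgeR adjusted p = 1.0). Its 95% interval, -0.81 to 1.5, was the narrowest of the 9 and left out a fall of more than 1.75-fold and a rise of more than 2.83-fold. Without KO replicate 2 the value was -0.019.

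**Figure D2:**
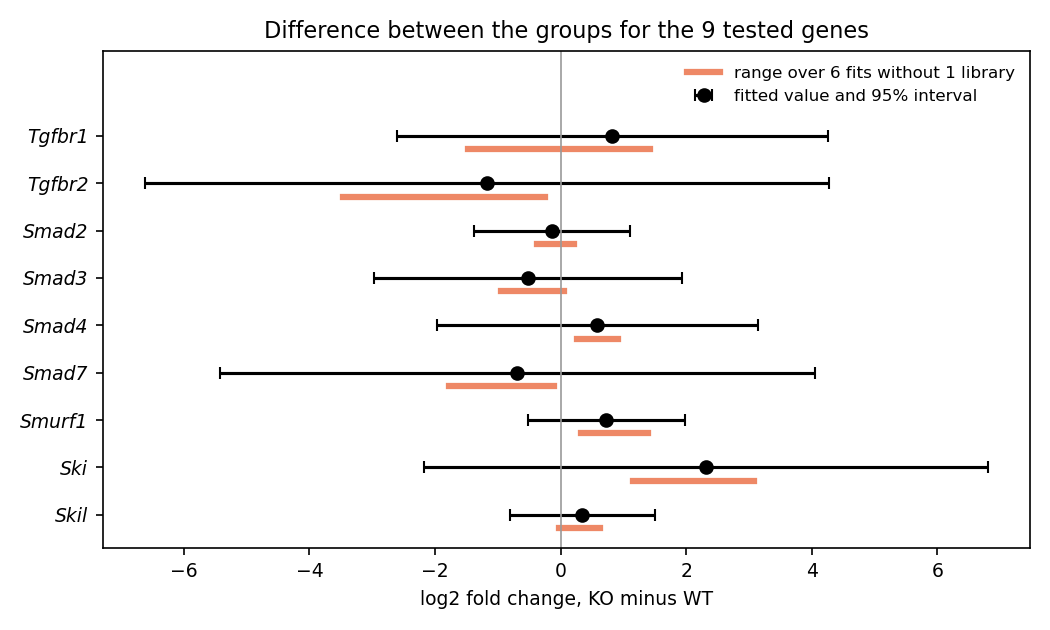
Log2 fold change, KO minus WT, of the 9 tested genes (points) with the 95% interval of edgeR's quasi-likelihood fit (black bars) and the range over 6 fits that each leave out 1 library (orange bars). Every interval includes 0; those of Skil, Smurf1 and Smad2 are the narrowest, and those of Tgfbr2, Smad7 and Ski span more than 8 units on the log2 scale.

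Per length of coding sequence, the 10 genes covered a wide range of levels. In mean CPM per kb over the 6 libraries, Smad2 stood at 44.1 ± 14.2 and was followed by Smad3 at 36.3 ± 22.3, Skil at 35.4 ± 14.0 and Smurf1 at 34.5 ± 16.7 (SD, n = 6). These 4 lay between the 58.7th and 65.6th percentile of the tested genes, whose median was 25.7 CPM per kb. Tgfbr1 (16.4 ± 19.4) and Smad4 (15.6 ± 7.04) followed, then Smad7 (9.02 ± 5.20), Ski (6.81 ± 8.68) and Tgfbr2 (5.66 ± 6.21), with Tgfbr3 at 0. No neighbour in this order was separated from the next by more than the larger SD of the pair. Levels per length were thus lower for both signalling receptors, and for Smad4, than for Smad2 and Smad3 in these mean values. The order did not hold in every library. Tgfbr1 (54.5 CPM per kb) exceeded Smad2 (51.8) and Smad3 (0) in KO replicate 3, and Smad4 (24.5) exceeded Smad2 (18.9) in KO replicate 1.

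**Figure D3:**
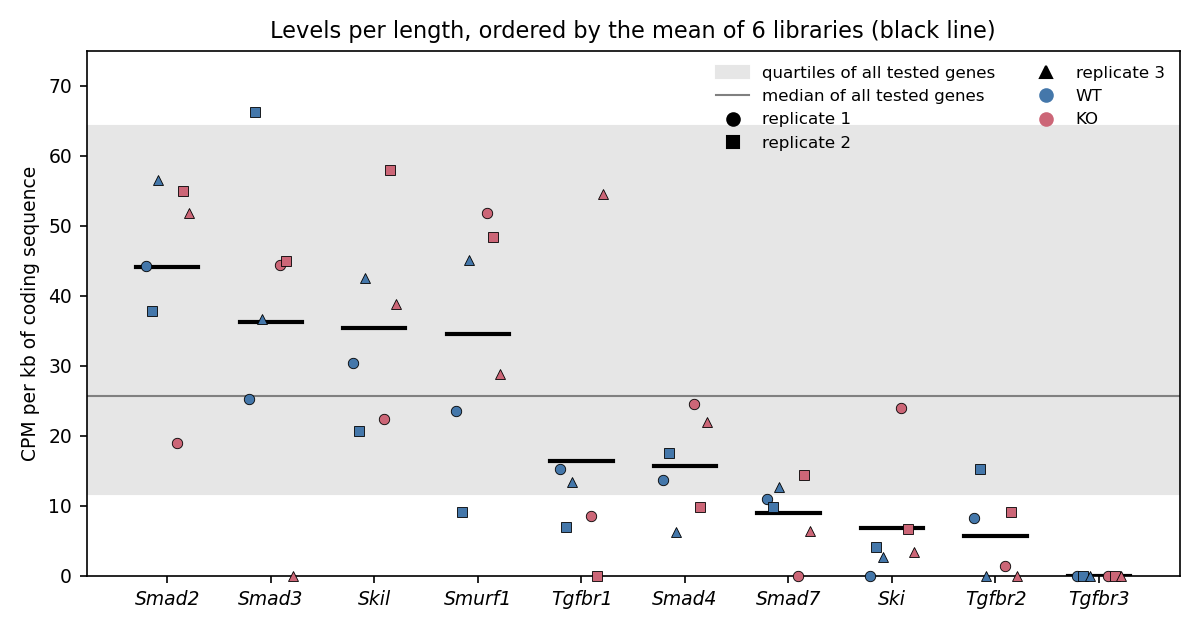
Level per length (CPM per kb of coding sequence, linear axis from 0) of the 10 genes in every library, ordered by the mean of 6 libraries (black line). The grey band runs from the lower to the upper quartile of all tested genes and the grey line their median of 25.7; Smad2, Smad3, Skil and Smurf1 have means above it and the other 6 below.

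Summed by role, the levels again overlapped or depended on a single gene. Tgfbr1 and Tgfbr2 together held 13.4 to 23.5 CPM per kb in the WT libraries and 9.06 to 54.5 in KO. Smad2, Smad3 and Smad4 together held 83.2 to 122 in WT and 73.8 to 110 in KO. Smad7, Smurf1, Ski and Skil together held 43.7 to 103 in WT and 77.3 to 127 in KO. The ratio of these inhibitors to the 3 signalling Smads, a quantity chosen after the values were seen, was 0.780, 0.360 and 1.03 in WT replicates 1 to 3 and 1.12, 1.16 and 1.05 in KO. All KO libraries lay above all WT libraries in this ratio, by a narrow margin. When Smad3 was left out because of its missing counts in KO replicate 3, the ratios overlapped, at 1.12, 0.790 and 1.64 for WT against 2.26, 1.96 and 1.05 for KO. No test was made of these sums.

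Molecule equivalents were low for most of the 10 genes. Of the 60 gene and library values of the 10 genes 12 were 0, and 25 lay below the modal count of their library. Smurf1, Skil, Smad2 and Smad3 averaged 4.61, 4.58, 4.13 and 3.34 molecule equivalents. The other 5 tested genes averaged under 3, as did 55.7% of all tested genes. At least 1 library was at 0 in 5 of the 9 tested genes, which was so for 33% of all tested genes. The 10 genes together made up at most 0.0442% of the counts of a library.

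**Figure D4:**
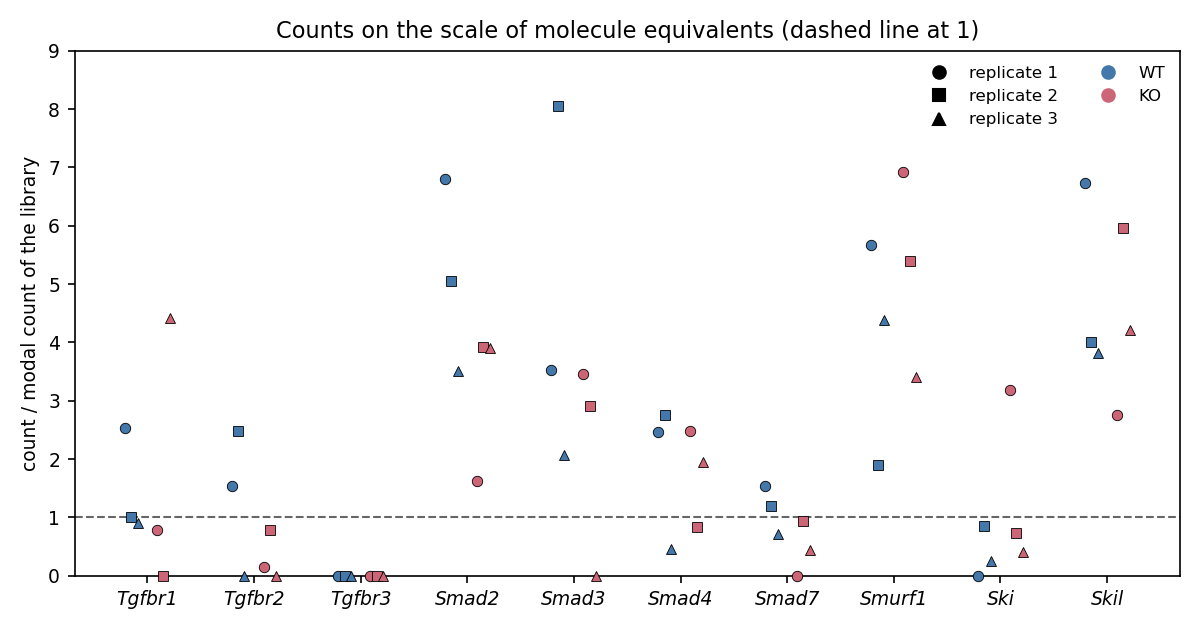
Count of each gene divided by the modal count of its library (molecule equivalents, linear axis from 0), for the 10 genes in 3 WT and 3 KO libraries; the dashed line marks 1. The highest value is Smad3 in WT replicate 2, at 8.05, and 25 of 60 values lie below the line.

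Beyond these 10 genes, 86 genes of the pathway in 7 lists by role are reported from the same fit; 62 of them were tested, 0 were called by edgeR, and 12 (19.4%) had an unadjusted p under 0.05, against 6.49% of all tested genes. The lists were drawn up with earlier results of these data known, so their counts are descriptions. The share over all tested genes is not matched for count level, and 55.7% of those genes averaged under 3 molecule equivalents. Among the ligands, Tgfb1 had 3 counts in all, 1 of them WT, and was not tested. Neither Tgfb2 (log2 fold change 0.12, SE 1.13) nor Tgfb3 (-0.46, SE 0.89) was called. Of 10 other receptors and coreceptors of the family 5 were tested and 0 called, with Acvr1c, Acvr2b, Acvrl1 and Bmpr1b at 0 in all libraries. Of 4 other Smads, Smad5 and Smad6 were tested and not called, and Smad9 was at 0 in all libraries.

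The lists of proteins around receptor and Smad also held no called gene. Of 11 adaptors and trafficking proteins 8 were tested and 2 had an unadjusted p under 0.05. Dab2, an endocytic adaptor that links the receptors to Smads, measured 262, 306 and 227 CPM in WT and 112, 102 and 165 CPM in KO, all KO below all WT (log2 fold change -1.06, SE 0.31, edgeR adjusted p = 0.304). Fkbp1a, the immunophilin FKBP12 that binds the GS box of the type I receptor, measured 63.8, 83.9 and 75.2 CPM in WT and 168, 153 and 118 CPM in KO (0.98, SE 0.39, edgeR adjusted p = 0.580). Groups that do not overlap were seen in 14.9% of all tested genes. All 14 listed ubiquitin ligases, deubiquitinases and the phosphatase Ppm1a were tested, with 0 called, 0 at an unadjusted p under 0.05 and a median log2 fold change of 0.22. DESeq2 called 7 of the 62 tested genes reported over the 7 lists, Dab2 among them, and 2.85% of all tested genes. On counts divided by the modal count edgeR also called Dab2 (adjusted p = 0.040), in a setting where 110 of 968 tested genes were called.

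Among the 17 nuclear partners of Smads reported here 15 were tested, with 0 called and 2 at an unadjusted p under 0.05. Ncor1, a corepressor that binds Ski and Skil, measured 339, 131 and 119 CPM in WT and 451, 380 and 327 CPM in KO. WT replicate 1 lay within the KO range and the other WT libraries below it, and the log2 fold change was 0.98 (SE 0.37, edgeR adjusted p = 0.547). Ncor1 passed without WT replicate 1 (log2 fold change 1.63, edgeR adjusted p = 0.036). Ncoa3, a coactivator, measured 96.7, 108 and 125 CPM in WT and 36.7, 0 and 22.6 CPM in KO (-2.47, SE 0.97, edgeR adjusted p = 0.570). With no count filter edgeR called Ncoa3 (adjusted p = 0.033), while DESeq2 did not (adjusted p = 0.689).

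Of the 27 target genes of the pathway reported here 16 were tested, 9 with positive and 7 with negative fold changes (median 0.19, against -0.016 over all tested genes). The list was not split by the direction in which TGF-β moves each gene, so these values do not measure the output of the pathway. None of these 16 was called by edgeR, and 8 had an unadjusted p under 0.05, against 6.49% of all tested genes. Again that share is not matched for count level, and the part of coverage in the contrast was not tested. Of the 8, 6 were higher in KO and 2 were lower. Fn1, fibronectin, measured 321, 292 and 237 CPM in WT and 425, 665 and 644 CPM in KO (log2 fold change 1.03, SE 0.25, edgeR adjusted p = 0.108). Lox, a collagen crosslinking enzyme, measured 122, 127 and 46.3 CPM in WT and 342, 317 and 233 CPM in KO (1.59, SE 0.38, edgeR adjusted p = 0.110), and it passed with the replicate number as a block (1.70, edgeR adjusted p = 0.038). Ccn2, a secreted matricellular protein, measured 221, 324 and 147 CPM in WT and 470.5, 390 and 528 CPM in KO, with means of 231 ± 89.1 and 463 ± 69.5 CPM (SD, n = 3 per group, edgeR adjusted p = 0.292). In all 3 genes each KO library lay above each WT library, and DESeq2 called all 3. With no count filter edgeR also called them (adjusted p = 0.018 for Fn1, 0.0019 for Lox and 0.046 for Ccn2). On counts divided by the modal count their edgeR adjusted p was 0.0051, 0.0017 and 0.020, in a setting where 110 of 968 tested genes were called. In the fits without 1 library none of them was called. The others of the 8, named here after their values were seen, were Timp1, Cdkn1a and Tpm1, with all KO libraries above all WT libraries, and Col1a1 and Id1, with all KO libraries below all WT libraries. Groups lay apart in 14.9% of all tested genes. The 8 were picked by their p in these same libraries, so their separation largely restates that choice. Col1a1, a collagen chain, measured 67.1 ± 21.9 CPM for WT against 6.17 ± 8.77 CPM for KO (SD, n = 3), and its fitted difference was -3.44 on the log2 scale (SE 1.19, adjusted p = 0.479 by edgeR). Id1, an inhibitor of helix-loop-helix transcription factors, measured 210 ± 31.9 against 112 ± 54.3 CPM (-0.90, SE 0.38, edgeR adjusted p = 0.634). Other classic targets had too few counts to test, among them Tagln, Tgfbi, Acta2 and Snai1. The epithelial and mesothelial markers also differed between the groups, in both directions, as given above, and their part in the target gene values was not tested. In libraries of bulk cells, fewer cells of a kind and less RNA per cell cannot be told apart.

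**Figure D5:**
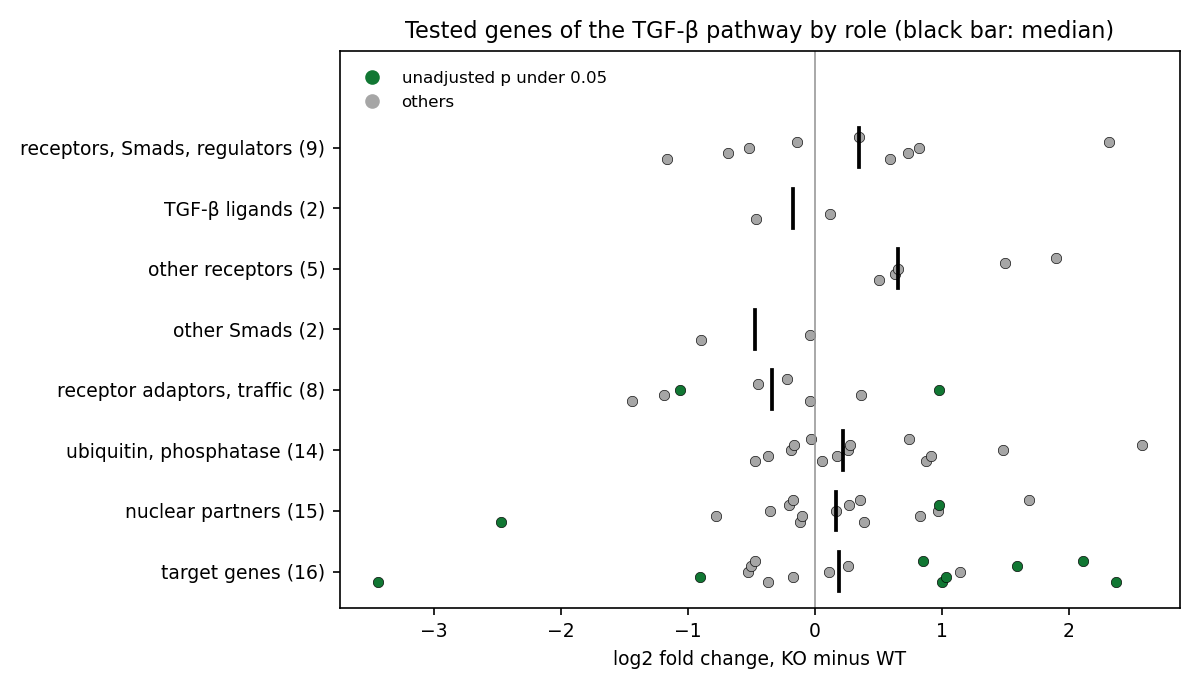
Log2 fold change, KO minus WT, of the tested genes in each list (number in brackets), 1 point per gene, with the median of the list as a black bar; green marks an unadjusted p under 0.05 and grey the others. Of the target genes shown 8 are green, and all 9 receptors, Smads and regulators of the top line are grey.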

How the data were processed

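The authors deposited whole-number counts per Ensembl gene, not normalized, for 6 libraries. Per the labels' protocols, adapters were trimmed, rRNA and tRNA reads removed with Bowtie, and remaining reads aligned with HISAT2 (GRCm38) and Bowtie (transcriptome). Cutadapt, featureCounts and DESeq2 are further tools in the submitters' processing notes. The annotation, strandedness and handling of multiply matching reads were not stated in any source used here.

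Identifiers were matched to GENCODE M21 (53360 of 53465). edgeR 4.0.16 (R 4.3.3; quasi-likelihood, robust, TMM factors, filterByExpr) tested 8200 genes, with Benjamini-Hochberg adjustment at 0.05. The standard error is the fold change over the square root of F, and 95% intervals use the t distribution. Coding length is that of the principal GENCODE transcript. The modal count is the highest interior peak between 8 and 150 (bandwidth 3). The fit was also run on simulated data, but the outcome is not given here and is not used as support. Members and lists were chosen with earlier results of these data known. Named genes were all members, Nat10, the ligands, called pathway genes and the 3 lowest p of each list at most; some go unnamed. A few listed genes are not reported here, and list counts leave them out. Alternatives were DESeq2 1.42.0, other scalings and filters, counts over the modal count, the replicate block and leaving out each library.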

Additional observations from a re-analysis of the deposited data

How the results depend on the processing

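Over 13 other settings the 9 tested members were refitted 113 times, with 0 called (lowest adjusted p 0.723) and 107 of 113 fold changes of the same sign. In 7 of the 13 settings the same 6 libraries were used, which left a sign little room to turn. Among the members only Tgfbr1 turned there, with the replicate block. Over the 6 fits without 1 library the sign held in 5 for Tgfbr1, Smad3 and Skil and in 4 for Smad2. It held in all 6 for the other tested members. The number with a positive value was 5, or 4 to 6 without single libraries, 4 with the replicate block, and 3 of the 5 still tested with at least 50 counts in 3 libraries. No member passed the filter when counts were divided by the modal count, so that setting gave no value. Without single libraries the log2 fold change ran from -1.47 to 1.42 for Tgfbr1, -3.46 to -0.25 for Tgfbr2, -1.78 to -0.10 for Smad7, -0.37 to 0.22 for Smad2, -0.95 to 0.060 for Smad3, -0.019 to 0.63 for Skil, -0.35 to 0.35 for Nat10, -0.95 to 0.66 for Tgfb3, -0.74 to 0.75 for Tgfb2, -0.16 to 1.04 for Acvr1 and -0.53 to 0.38 for Smad5. With library totals Nat10 stood at 0.026 and Smad5 at 0.075. Same-numbered WT and KO libraries did not deviate together (r = -0.017, -0.0026 and -0.0066 across genes). As 55.7% of the tested genes averaged under 3 molecule equivalents, counting noise could hide a pairing. Whether the numbers pair the samples is thus not known. With the replicate block Tgfbr1 stood at -1.09 and Bmpr2 at -0.035, and 0 members, 1 gene of the pathway lists and 38 genes in all were called. The whole-table count was 91 with no count filter, 234 by DESeq2, 110 of 968 tested on modal counts and 6 to 29 without single libraries; that of the pathway lists was 7, 7, 4 and 0 to 2. The causes were not tested.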
